A study of Mus musculus with 2 samples.

Results

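The T cells of back skin and of the preputial gland (PG) were described from single-cell RNA sequencing of both tissues. The PG is a paired gland of male rodents filled with sebocytes, the lipid-producing cells that also make up the sebaceous glands of skin. One pooled library was made from back skin and 1 from PG, both from 3 male wild type C57BL/6 mice aged 52 weeks. No altered allele and no agent is named for either group, so tissue was the single difference in the labels. A barcode stood for 1 cell, and each unique molecular identifier (UMI) for 1 captured transcript. A barcode was kept when no fewer than 500 genes and 1000 UMIs were detected in it and mitochondrial genes gave no more than 10% of them. The T cells were selected on their UMIs of marker genes. A kept barcode was taken as one when it held UMIs of at least 2 of the 4 genes Cd3d, Cd3e, Cd3g and Ptprc, of which at least 1 was a Cd3 gene, held no UMI of the Langerhans cell gene Cd207, and held fewer than 20 UMIs of Krt5 and Krt14 per 10000. This gave 115 T cells among 13598 kept barcodes, of which 78 were among 8899 of skin and 37 among 4699 of PG.

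T cells recognise antigen through a clonal receptor that is assembled from variable and constant gene segments and carried to the surface with the CD3 chains. Most T cells of the body carry a receptor of an alpha and a beta chain, and a smaller branch carries gamma and delta chains instead. In mouse epidermis the resident T cells are known as dendritic epidermal T cells, which share 1 invariant gamma-delta receptor, sit between keratinocytes and carry natural killer type receptors. Other gamma-delta T cells, found in dermis and at many mucosal surfaces, are a known source of interleukin-17A.

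At the limits on depth used here, the shares of T cells in both tissues differed by less than their counting error. T cells made up 0.877% of the kept barcodes of skin (exact 95% interval 0.693 to 1.09) and 0.787% of those of PG (0.555 to 1.08). The ratio of PG to skin was -0.15 on the log2 scale, with an interval of -0.76 to 0.43. The direction turned with lower limits on depth, since with at least 200 genes and 500 UMIs T cells made up 1.52% of skin and 2.25% of PG barcodes (log2 0.56). All intervals here are exact binomial ones and cover counting error only. With 1 library per tissue no difference between the tissues was tested, and the library cannot be told apart from the tissue.

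Skin T cells held 149734 UMIs in all, with a median of 1341 per cell and a range of 1001 to 9237. PG T cells held 80253, with a median of 1709 and a range of 1015 to 7907. Both sets were therefore shallow, and many cells lay just above the lower limit, since 19 skin cells and 3 PG cells held no more than 1100 UMIs. The other kept barcodes were deeper, with medians of 2395 in skin and 2737 in PG. The whole libraries held 37675226 and 26288071 UMIs, and no barcode with at least 500 genes and at least 1000 UMIs was shared between them. Levels below are UMIs summed over the T cells of a tissue as counts per 1000000 of their UMIs (CPM), and a floor of 3 UMIs corresponded to 20.04 CPM in skin and 37.4 CPM in PG.

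The values that chose the cells are given as a description. All 4 genes had UMIs in 41 skin and 2 PG cells, 3 genes in 19 and 16, and 2 genes, the least the rule allowed, in 18 and 19. Cd3g was at 3853 CPM in skin and 623 CPM in PG, Cd3e at 1810 and 648 CPM, Cd3d at 1402 and 598 CPM, and Ptprc at 855 and 237 CPM. Just outside the rule, 26 skin and 27 PG barcodes held 1 Cd3 gene and no Ptprc UMI, and 10 skin and 11 PG barcodes were left out for their keratin UMIs alone. Among the T cells themselves, 56 of skin and 30 of PG held no Krt5 or Krt14 UMI.

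The label was then set against 15 T cell genes that the rule did not use, among them the receptor constant genes, the kinases Lck and Zap70, the adaptor Lat and the surface protein Thy1. At least 1 of these was detected in 77 of the 78 skin cells and in 33 of the 37 PG cells. Their summed level was 4682 CPM in skin T cells against 119 CPM in the other kept barcodes of skin, and 1844 CPM in PG T cells against 24.6 CPM. All 15 genes in skin and 13 in PG were at least 3-fold higher than in the other kept barcodes of the same library, beside 14.9% of all genes compared in skin and 17.8% in PG. In both tissues the name was thus carried by genes outside the rule, with a lower level in PG. Genes of a fibroblast list summed to 5670 CPM in PG T cells and 240 CPM in skin T cells. In PG, 10 of the 37 cells held 3 or more fibroblast genes, as described below. The genes that led the T cells over all other barcodes included Trdv4, Tcrg-C1, Xcl1, Prf1, Trdc and Nkg7 in skin, and Nkg7, Il17a, Cxcr6, Lat and Rac2 in PG, beside the Cd3 genes.

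**Figure D1:**
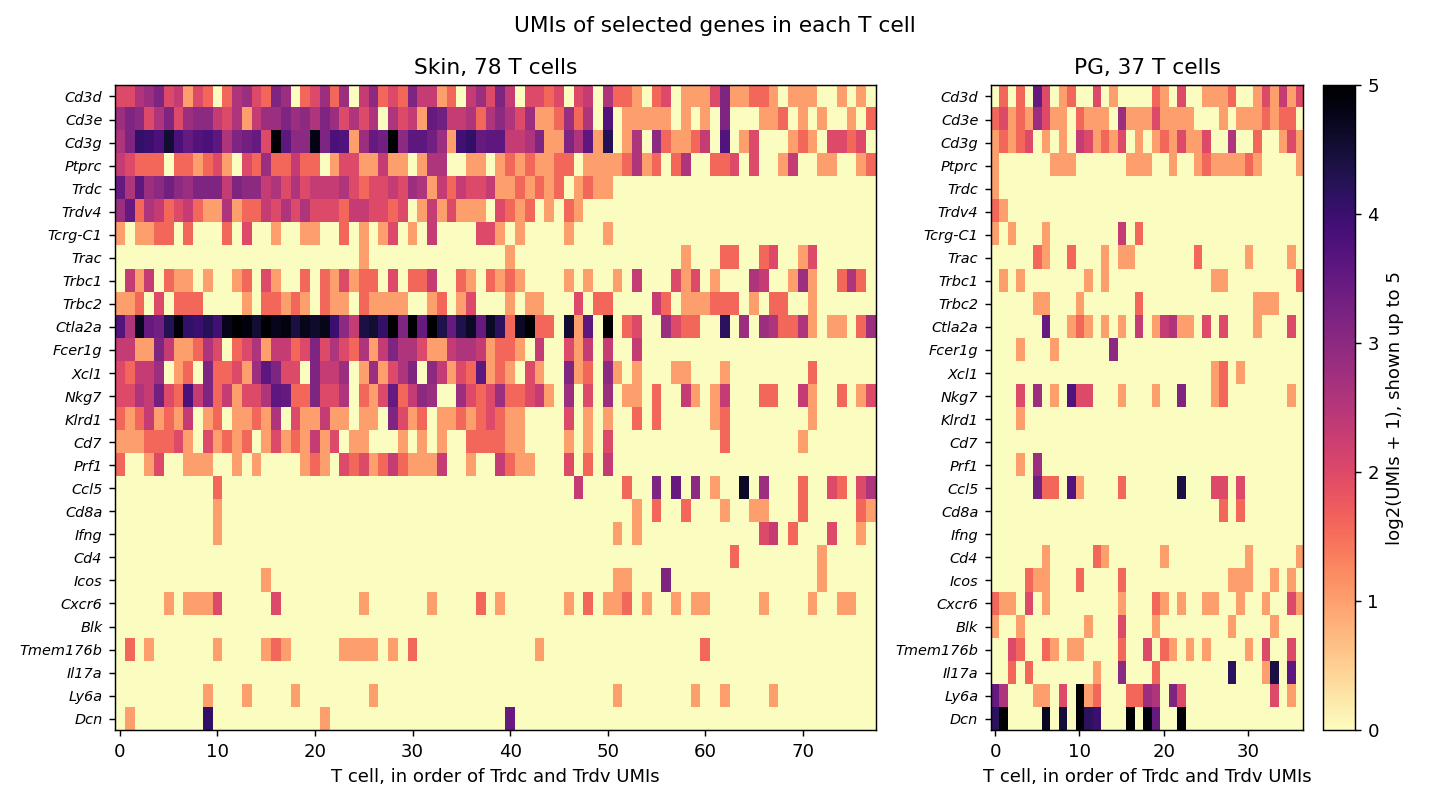
UMIs of selected genes (rows) in each T cell (columns) of skin, left, and PG, right, with cells in order of their Trdc and Trdv UMIs and the colour giving log2(UMIs + 1). The left block of skin cells held Trdc, Ctla2a, Fcer1g and Xcl1 together, whereas Il17a was seen in 9 PG cells and in no skin cell.

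The receptor genes gave the plainest difference between the tissues. Trdc, the constant gene of the delta chain, lies at chr14:54142851-54148868 (GRCm38, plus strand) and had 213 UMIs in 50 of 78 skin cells and 1 UMI in 1 of 37 PG cells. Trdv4, a delta variable gene at chr14:54074905-54075515 that dendritic epidermal T cells use, had 124 UMIs in 44 skin cells and 3 UMIs in 2 PG cells. These levels were 1423 and 12.5 CPM for Trdc, and 828 and 37.4 CPM for Trdv4. Skin cells with a Trdc UMI held a median of 4, and the highest cell held 11, so the skin signal came from many cells. Tcrg-V5, the gamma variable gene of the same epidermal receptor, had 9 UMIs in 8 skin cells and 1 UMI in PG. The gamma variable gene with the most UMIs in skin was Trgv2, with 25 UMIs in 16 skin cells and 3 in 3 PG cells. Tcrg-V6, a gamma variable gene known from interleukin-17A producing gamma-delta T cells, had 1 UMI in PG.

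The coding ends of these 3 variable genes are shown because the gamma variable gene tells the epidermal receptor (Tcrg-V5) from the one known from interleukin-17A producing cells (Tcrg-V6), while both are known to pair with Trdv4. Each line gives the last 90 coding bases of the germline gene on its own strand, and capitals mark the codon of the conserved cysteine at which the joined antigen-binding loop of the receptor begins. They were read from the annotated transcripts of these genes. Their GRCm38 positions are chr14:54075426-54075515 for Trdv4, chr13:19192636-19192725 for Tcrg-V5 and chr13:19190840-19190929 for Tcrg-V6, all on the plus strand.
Trdv4: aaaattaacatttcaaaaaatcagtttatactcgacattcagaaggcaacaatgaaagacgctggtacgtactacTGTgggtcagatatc
Tcrg-V5: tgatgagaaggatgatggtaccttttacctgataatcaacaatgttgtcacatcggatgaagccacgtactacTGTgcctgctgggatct
Tcrg-V6: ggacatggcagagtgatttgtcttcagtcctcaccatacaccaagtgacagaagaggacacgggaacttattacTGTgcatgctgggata
After the cysteine codon the germline genes add 12 bases in Trdv4, 14 in Tcrg-V5 and 13 in Tcrg-V6. The counts give no sequence across the junction, so whether a cell carried the invariant joint was not analysed here.

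Among the constant genes, Tcrg-C1 (chr13:19214103-19217024) had 39 UMIs in 23 skin cells and 9 UMIs in 5 PG cells. Trac, the alpha constant gene at chr14:54220521-54224206, had 16 UMIs in 9 skin cells and 12 UMIs in 9 PG cells, which is 107 and 150 CPM (log2 PG over skin 0.48, interval -0.73 to 1.66). Trbc1 and Trbc2, the beta constant genes at chr6:41538218-41539881 and chr6:41546730-41548352, were at 634 and 467 CPM in skin and at 99.7 CPM each in PG. The alpha constant gene thus did not differ beyond counting error, while the beta constant genes were higher in skin. The first exons of Trbc1 and Trbc2 differ at 1 of 375 bases and those of Tcrg-C1 and Tcrg-C2 at 9 of 330, so the split of UMIs between such copies is uncertain. The beta variable genes went the other way, with 26 UMIs of 7 Trbv segments in 14 PG cells and 8 UMIs of 3 segments in 6 skin cells. The files of the tissues list different sets of possible barcodes. Whether both libraries captured the same parts of receptor transcripts was not tested.

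By cell, 51 of 78 skin T cells held a UMI of Trdc or a Trdv gene, a share of 65.4% (interval 53.8 to 75.8), against 2 of 37 PG cells, 5.41% (0.661 to 18.2). The intervals do not overlap, and after each cell was thinned to 1000 UMIs the counts were 48 and 2. Both of the PG cells held macrophage or fibroblast markers, and without the 11 PG cells of that kind the count was 0 of 26. Fibroblasts, which do not make these transcripts, showed the background from free RNA, with 2 of 817 in skin (0.245%) and 0 of 439 in PG, at median depths of 1882 and 1421 UMIs. UMIs of the epidermal variable genes Trdv4 or Tcrg-V5 were found in 45 skin cells, 57.7% (46.0 to 68.8), and in 2 PG cells. Gamma chain UMIs were found in 39 skin cells and in 8 PG cells, 21.6% (9.83 to 38.2), of which 1 also held a delta UMI. In 8 PG cells no receptor UMI of either kind was found, against 5 skin cells.

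A beta chain UMI did not set a skin cell apart from the gamma-delta cells. Of the 51 skin cells with a Trdc or Trdv UMI, 43 also held a Trb UMI, but 3 held a Trac or Trav UMI. Over all T cells, Trb UMIs were found in 64 skin cells and 21 PG cells, and Trac or Trav UMIs in 14 skin cells, 17.9% (10.2 to 28.3), and 11 PG cells, 29.7% (15.9 to 47.0). Fibroblasts held Trb UMIs in 5 of 817 cells in skin (0.612%) and in 0 of 439 in PG. Thinned to 1000 UMIs, Trac or Trav remained in 10 skin and 5 PG cells.

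The co-receptors were sparse. Cd4, which helper T cells carry, had UMIs in 2 skin cells, 2.56% (0.312 to 8.96), and in 6 PG cells, 16.2% (6.19 to 32.0), and these intervals overlap. Cd8a or Cd8b1, of cytotoxic T cells, had UMIs in 11 skin cells, 14.1% (7.26 to 23.8), and in 5 PG cells, 13.5% (4.54 to 28.8). Foxp3, the factor that defines regulatory T cells, had no UMI in any T cell of either tissue, which at this depth allows a share of up to 3.85% of skin cells and 8.11% of PG cells with a UMI by the limit of 3 cells, or up to 4.62% and 9.49% by the exact interval.

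**Figure D2:**
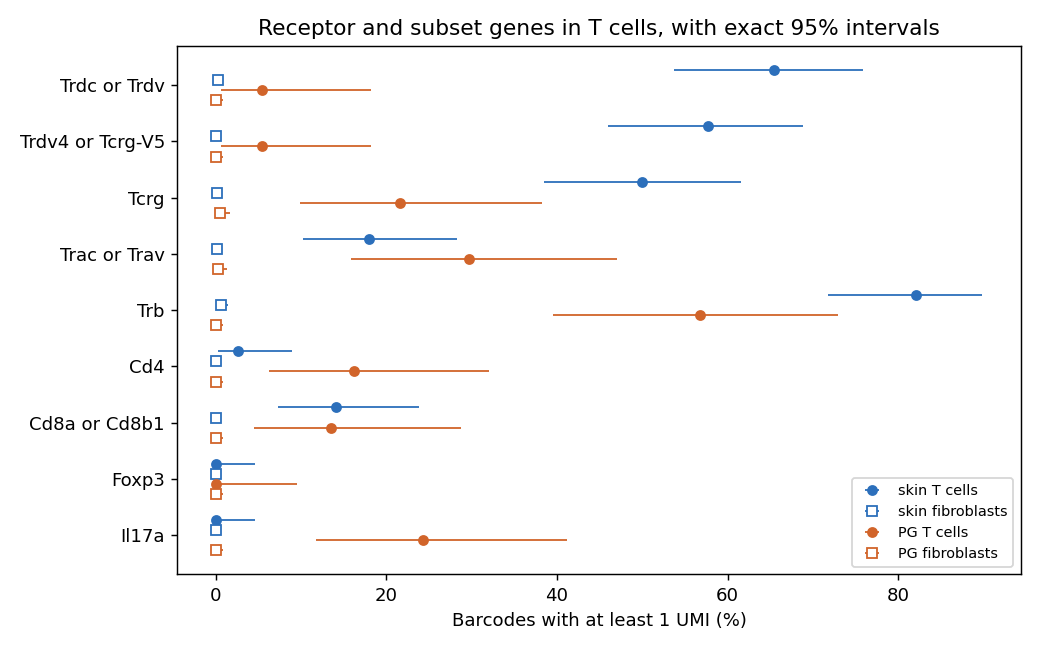
Share of T cells (filled points) and of fibroblasts (open squares) with at least 1 UMI of receptor, co-receptor and cytokine genes, in percent with exact 95% intervals, for skin and PG. The Trdc or Trdv share was 65.4% in skin and 5.41% in PG, whereas the Cd8a or Cd8b1 shares of 14.1% and 13.5% lay close together.

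Within skin, the T cells with and without a Trdc or Trdv UMI were compared, a contrast chosen after seeing the data. The 51 cells with such a UMI held 91302 UMIs (median 1238 per cell) and the 27 without held 58432 (median 1474). Of 1628 genes compared, 23.8% were at least 2-fold higher and 12.0% at least 2-fold lower in the cells with a delta UMI. Examples of the genes higher there, picked after seeing values, follow. Fcer1g, a signalling chain of Fc and natural killer receptors, had 152 UMIs in 46 of 51 cells against 4 UMIs in 1 of 27 (1665 and 68.5 CPM, log2 4.60, interval 3.22 to 6.50). Xcl1, a chemokine for cross-presenting dendritic cells, had 169 UMIs in 42 cells against 7 in 6 (1851 and 120 CPM, log2 3.95, 2.88 to 5.29). Prf1, the pore-forming protein perforin, had 57 UMIs in 30 cells against 0, at least 3.60 on the log2 scale against a floor of 3 UMIs. Ctla2b, a cathepsin inhibitor-like gene, was at 1687 against 51.3 CPM and the surface protein gene Cd7 at 635 against 51.3 CPM. Klrd1, a chain of natural killer receptors, had 76 UMIs against 8.

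Ccl5, Ifng, the Cd8 genes and Trac were among the genes higher in the cells without a delta UMI, again as examples picked after seeing values. Ccl5, a chemokine of effector T cells, had 73 UMIs in 12 of 27 cells against 6 in 2 of 51 (1249 and 65.7 CPM, log2 -4.25, interval -5.74 to -3.06). Ifng, the gene of interferon gamma, had 15 UMIs in 7 cells against 1 in 1 (257 and 10.95 CPM). Cd8a had 13 UMIs in 9 cells against 1 in 1, Cd8b1 11 against 0, and Trac 14 UMIs in 7 cells against 2 in 2 (log2 -3.45, -6.63 to -1.33). The survival receptor Il7r and the trafficking factor Klf2 were at 257 against 21.9 CPM and 359 against 32.9 CPM. The beta constant genes did not follow this split, with Trbc1 at a log2 difference of -0.12 (-0.74 to 0.51) and Trbc2 at 0.58, and Nkg7 was higher in the cells with a delta UMI (2.13). Of 16 immediate early and heat shock genes compared, 7 were at least 2-fold higher in the cells without a delta UMI (12.0% of all genes) and none in those with one, among them Hspa1a (log2 -2.77), Nr4a1 (-2.54) and Jun (-1.95). Their part in the other differences was not tested. Cells without a delta UMI may still carry an uncaptured delta transcript, which was not tested.

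**Figure D3:**
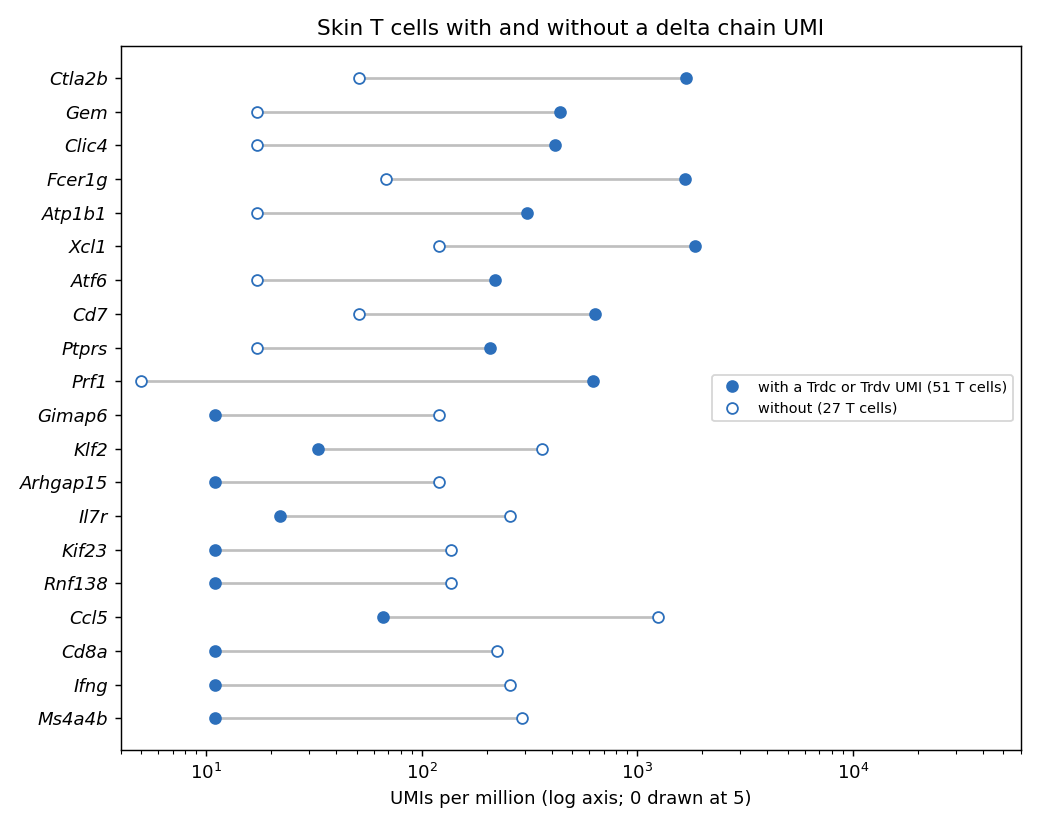
Levels (CPM, log axis) of the 10 genes at each end in skin T cells with (filled) and without (open) a Trdc or Trdv UMI, among genes at least 3-fold higher than in other kept barcodes and above free RNA. Fcer1g, Xcl1 and Ctla2b were higher in the cells with such a UMI and Ccl5, Ifng and Cd8a in those without, and the 0 of Prf1 is drawn at 5 CPM.

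A stricter split of skin T cells, into those with UMIs of gamma-delta genes alone and those with UMIs of alpha-beta genes alone, left 8 and 18 cells with 14160 and 39129 UMIs. All 18 of the latter, called alpha-beta cells here, held a Trb UMI, but only 8 held a Trac or Trav UMI. Of 917 genes, 37.1% were at least 2-fold higher and 12.5% at least 2-fold lower in the gamma-delta cells. The number higher, 340, depended on the settings, with 139 by the receptor with more UMIs and 142 after thinning. The leading genes were carried by few molecules. Nr4a2, an early response factor, had 12 UMIs in 3 of 8 cells against 1 UMI, and Rel, an NF-kappa-B subunit, had 7 UMIs in 4 cells against 1. Golga3 and Olfr1369-ps1 had 13 UMIs each in 2 cells against 1, and Cops4, Cers4, Arf6 and Mfsd4a had 6 or 7 against 1. At the other end, Pabpc1, the poly(A) binding protein, had 22 UMIs in 13 of 18 cells against 1 UMI (log2 -2.99, interval -8.36 to -0.36), and AW112010 had 38 UMIs in 9 cells against 2. Cyba and Ptpn18 had 19 UMIs each against 1. The keratinocyte genes Krt10, Hspb1 and Serpinb5 and the muscle gene Acta1 were also lower in the gamma-delta cells, each carried by 3 of the 18 alpha-beta cells. Of the 12 keratinocyte genes listed, 9 gave a ratio, of which 7 were at least 2-fold lower and 1, Krt15, higher in the gamma-delta cells (21 UMIs in 4 cells against 10 in 5, log2 2.54, 1.39 to 3.79). Krt10 turned to 0.14 with no keratin limit, and Hspb1 to 0.76 with Krt5 and Krt14 under 5 per 10000 and to 0.10 when cells were assigned by the receptor with more UMIs.

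Between the tissues, 3748 genes reached 50 CPM in the T cells of either one. Of these, 21.6% were at least 2-fold higher in PG and 25.5% at least 2-fold higher in skin. Their median was -0.22 on the log2 scale of PG over skin, and directions below are to be read against it. Of the genes past 2-fold, 45.9% were higher in PG as computed and 56.8% after centring on that median, so the balance between the directions depended on the scaling. The 10 genes at each end were taken among 314 genes that were also at least 3-fold higher in T cells than in the other kept barcodes and above free RNA, of which 145 were higher in PG and 169 in skin. That condition was asked only in the tissue where a gene was higher. Dcn, for example, was 3.22-fold over the other barcodes in PG and 0.21-fold in skin, C3 4.69-fold and 0.63-fold, and Rasa2 9.71-fold in skin and 1.42-fold in PG.

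The genes higher in skin T cells were led by Trdc, whose log2 ratio of PG over skin was -6.83 (interval -12.15 to -4.34). Klrd1, the receptor chain CD94, had 84 UMIs in 44 skin cells and 1 UMI in PG (log2 -5.49, -10.81 to -2.98). Xcl1, at chr1:164931644-164935527 on the minus strand, had 176 UMIs in 48 skin cells and 4 UMIs in 3 PG cells (1175 and 49.8 CPM, log2 -4.56, -6.45 to -3.18). Trdv4 stood at -4.47 (-6.77 to -2.89) and Ctla2b at -4.39. Ctla2a, a cathepsin inhibitor-like gene at chr13:60934155-60936625, was the most abundant of them, with 1038 UMIs in 67 skin cells and 42 in 16 PG cells (6932 and 523 CPM, log2 -3.73, -4.21 to -3.28). The survival gene Bcl2, the receptor adaptor Trat1, the kinase subunit Prkacb and the Ras regulator Rasa2 completed the set, at log2 values of -3.88, -3.77, -3.91 and -4.31. For Trdc, Klrd1, Xcl1 and Trdv4 at most 0.245% of the fibroblasts of either library held a UMI, and myeloid barcodes were at 0 apart from Klrd1 in skin.

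Il17a, at chr1:20730905-20734496 on the plus strand, led the genes higher in PG T cells. This cytokine gene had 63 UMIs in 9 of 37 PG cells, a share of 24.3% (11.8 to 41.2), and no UMI in 78 skin cells. Its level of 785 CPM in PG was at least 39.2-fold above the floor of 3 UMIs in skin. The 9 cells held 20, 17, 11, 7, 2, 2, 2, 1 and 1 UMIs, so 4 of them carried most of the molecules. No myeloid barcode and no fibroblast of PG held an Il17a UMI, although 11 of the 4662 other kept barcodes held 35 UMIs, and the whole skin library held 5 against 403 in the PG library. After thinning to 1000 UMIs, 6 PG cells still held one.

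Receptor UMIs in the Il17a cells of PG were too few to assign a receptor type. None of the 9 held a Trdc or Trdv UMI, 3 held a gamma chain UMI, 2 a Trac or Trav UMI, 5 a Trb UMI and 2 none of these. Cxcr6, a homing receptor of tissue T cells, was detected in 6 of them, Rora and Icos in 5 each, and Blk, Maf and Tmem176b in 4 each. Over all 37 PG T cells these genes were detected in 15 (Cxcr6), 13 (Rora), 10 (Icos), 7 (Blk), 10 (Maf) and 15 (Tmem176b), so the share with Tmem176b was alike in both. Rora, Blk, Maf and Tmem176b are known from interleukin-17A producing T cells, and Icos is a costimulatory receptor. One held Cd4.

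The other genes at the PG end differed in how particular they were to T cells. Tnfrsf4, the costimulatory receptor OX40, had 9 UMIs in 4 PG cells and 1 UMI in skin (112 and 6.68 CPM, log2 4.07, interval 1.22 to 9.52), and 0.23% of PG fibroblasts held a UMI. Ly6a, the surface protein Sca-1 of activated T cells and of fibroblasts, had 86 UMIs in 16 PG cells and 8 in 8 skin cells (log2 4.33, 3.28 to 5.58), and 79.7% of PG fibroblasts and 81.5% of skin fibroblasts held it. Dcn, the matrix protein decorin, had 308 UMIs in 11 PG cells and 28 in 4 skin cells (3838 and 187 CPM, log2 4.36, 3.80 to 4.97), and it was 1 of the genes on which fibroblasts were selected. The secreted or matrix genes Cxcl12, Ccdc80, Efemp1 and C3 stood at 5.07, 4.60, 4.48 and 4.23, with Plac8 at 4.48 and the cytokine signalling inhibitor Socs3 at 4.07. In PG, Socs3 was at 518 CPM in myeloid barcodes and 141 CPM in fibroblasts, against 112 CPM in T cells.

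Several of these moved with fibroblast genes in PG. Macrophage or fibroblast markers were held by 11 PG T cells and 1 skin T cell, of which 10 in PG and none in skin held 3 or more fibroblast genes. All 7 genes of the fibroblast list were detected in PG T cells and 4 in skin, where Col3a1, Lum and Pdgfra were at 0. Their summed level was 5670 CPM in PG and 240 CPM in skin, and Dcn was the most abundant in both. Without those 12 cells, Cxcl12, Ccdc80, Efemp1 and Plac8 had no PG UMI and 1 skin UMI each, and gave no ratio. Dcn, which is 1 of the genes by which these cells were left out, had 39 PG UMIs in place of 308 and stood at log2 1.86 (1.12 to 2.61). Of these 39 UMIs, 29 lay in 1 PG cell and 10 in another, and 2 skin cells held 16 and 10 of the 28 skin UMIs. C3 turned to -1.08 (-4.29 to 1.12), from 2 PG UMIs and 11 skin UMIs that all lay in 1 cell. Ly6a kept 23 PG UMIs and stood at 2.91 (1.69 to 4.28). Il17a still had 62 UMIs in 8 of the 26 PG cells left, and Xcl1 and Ctla2a stood at -4.48 and -3.78. Tnfrsf4 and Socs3 were at 3.70 each. Il17a, Xcl1 and Ctla2a were thus about as far apart between the tissues without these cells, while Ly6a was closer.

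**Figure D4:**
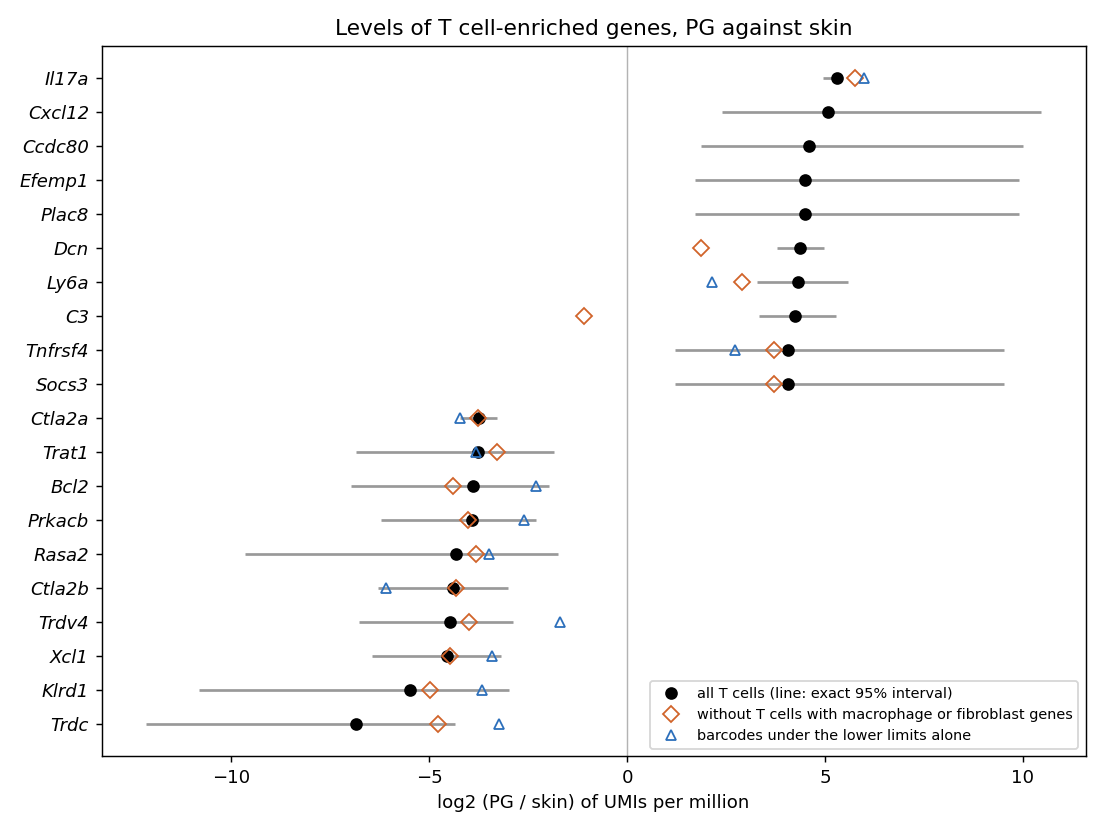
Ratio of PG over skin levels (log2) of the 10 genes at each end, for all T cells (circles with exact 95% intervals), without cells that hold macrophage or fibroblast markers (diamonds) and for the shallower barcodes under the lower limits (triangles). A point of a gene without a UMI in 1 tissue is a bound, as for Il17a, and between circles and diamonds Dcn moved from 4.36 to 1.86 and C3 from 4.23 to -1.08, while genes without a diamond gave no ratio.

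Without the condition on other barcodes, genes less than 3-fold over the other kept barcodes took the PG end and stood beside Trdc and Klrd1 at the skin end. In PG, Igfbp4, Idi1, Plin2, Serping1 and Cst6 led at log2 values of 6.15, 6.12, 5.85, 5.63 and 5.50, of which Idi1, an enzyme of isoprenoid synthesis, was at 12424 CPM in the free RNA of PG, and 1250 of the 1264 Cst6 UMIs lay in 1 cell. Without cells that hold macrophage or fibroblast markers, Serping1 had 2 UMIs in each tissue, in place of 53 in PG, and gave no ratio. Igfbp4 had 10 PG UMIs in place of 38 (log2 4.70). Idi1 and Cst6 stood at 6.47 and 5.98 without those cells, and Plin2 at 4.50 against the floor. In skin, the keratins Krt10 and Krt15 and the epidermal gene Fam25c stood beside Trdc and Klrd1, at -5.88, -5.49 and -5.08. Free RNA was estimated at 22% of T cell UMIs in skin and 42.3% in PG. The estimate set the summed share of Krt1, Krt10, Krt15, Krt17, Col1a1, Col1a2, Col3a1, Scd1 and Mgst1 in T cells against that in free RNA. It thus counts collagen UMIs of PG cells with fibroblast genes, and it is no independent check of Krt10 and Krt15. Where subtraction left no count in 1 tissue, the floor of 3 UMIs was used and the ratio is a limit. With free RNA subtracted, Krt15 stood at an upper limit of 0.46 and Krt10 and Fam25c at -3.76 and -2.19. Igfbp4, Plin2, Serping1 and Cst6 stood at 4.50, 7.76, 5.11 and 9.47, and Idi1 gave no ratio. At the skin end, Trdc (-6.78), Klrd1 (-5.38), Trdv4 (-4.32), Xcl1 (-4.38), Ctla2a (-3.56) stayed close to their values above, and Prkacb moved farthest of the 10, to -4.20. At the PG end Il17a was at 5.47, but Tnfrsf4 and Dcn stood farther out at 5.87 and 5.88, as did Ly6a (5.44) and C3 (4.69), while Cxcl12, Ccdc80, Plac8, Efemp1 and Socs3 stood closer in at 3.53, 3.11, 3.03, 3.01 and 2.59. The 10 genes at each end kept their direction.

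Among the lists of T cell genes, counts past 2-fold are set against the 21.6% of all genes compared that were higher in PG and the 25.5% higher in skin. Of the epidermal gamma-delta list, all 9 genes found in the files could be compared, 8 were at least 2-fold higher in skin and none in PG, and their median was -3.22 beside -0.22 for all genes. Nkg7, a granule protein of cytotoxic cells, had 227 UMIs in 59 skin cells and 42 in 12 PG cells (1516 and 523 CPM, log2 -1.53, interval -2.05 to -1.05). Fcer1g had 156 UMIs in 47 skin cells and 9 in 3 PG cells (log2 -3.22, -4.37 to -2.25). Of the 9 PG UMIs, 7 lay in 1 cell with macrophage or fibroblast markers, and without such cells the ratio was -4.87 (-7.92 to -2.99). Cd7 had 61 and Klrk1, the receptor NKG2D, 29 UMIs in skin and neither had any in PG. Itgae, the integrin chain that binds E-cadherin of epithelia, had 35 UMIs in 20 skin cells and 2 in 2 PG cells (log2 -3.23, -6.33 to -1.27). The summed gamma-delta constant genes were at 1770 CPM in skin and 174 CPM in PG (2 of 3 compared higher in skin), and the alpha-beta constant genes at 1209 and 349 CPM (2 of 3).

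Of the type 1 and cytotoxic list, 4 of 5 genes compared were at least 2-fold higher in skin (25.5% of all genes) and none in PG, with a median of -1.53. With 1000 genes and 2000 UMIs, which left 19 skin and 12 PG cells, Prf1 and Nkg7 turned to 0.27 and 0.20. Prf1 had 57 UMIs in 30 skin cells and 7 in 2 PG cells (log2 -2.13, interval -3.50 to -0.99), and Ifng 16 UMIs in 8 skin cells and none in PG. In the shallower barcodes described below, Ifng had 22 UMIs in skin and 6 in PG (log2 -1.73, -3.32 to -0.38). Ccl5 was the exception, with 79 UMIs in 14 skin cells and 57 in 10 PG cells (528 and 710 CPM, log2 0.43, -0.09 to 0.94). No UMI of Gzma was found in either tissue, and Gzmb had 2 in each.

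Of the type 17 list, 5 of 7 genes compared were at least 2-fold higher in PG (21.6% of all genes), none in skin, and the median was 1.48. Its summed level was 534 CPM in skin and 1981 CPM in PG. Beside Il17a, Blk, a kinase of interleukin-17A producing gamma-delta T cells, had 9 UMIs in 7 PG cells and none in skin. Tmem176b had 27 UMIs in 15 PG cells and 18 in 14 skin cells (log2 1.48, interval 0.57 to 2.43), and Rora, a nuclear receptor, 17 in 13 and 13 in 10 (1.29, 0.16 to 2.45). Rora fell under 2-fold among cells without a Trdc or Trdv UMI (0.25, -0.92 to 1.49) and in the shallower barcodes described below (0.70, -0.40 to 1.84). Tmem176b stood at 3.38 and 3.90 there. Maf was at -0.10, and Il17f and Ccr6 had no UMI in either tissue.

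The regulatory T list had 5 of 7 genes past 2-fold in PG (21.6% of all genes) and none in skin (median 1.37), although its defining gene Foxp3 was at 0. The 5 were Tnfrsf4, Tnfrsf9, Icos and Ctla4, which are receptors of activated T cells in general, and Areg, an epidermal growth factor receptor ligand. Tnfrsf9 had 15 UMIs in 4 PG cells and 7 in 7 skin cells (log2 2.0, interval 0.62 to 3.53), Icos 13 in 10 and 12 in 5 (1.02, -0.23 to 2.28), and Areg 18 in 7 and 13 in 3 (1.37). Icos and Areg turned to -0.091 and -0.44 with 1000 genes and 2000 UMIs. The type 2 list had 2 of 3 past 2-fold in PG, with Il4 in 2, Il5 in 2 and Il13 in 3 PG cells, 5 cells in all, against Il13 in 2 skin cells. Il1rl1, the interleukin-33 receptor, was found in 3 of those 5 PG cells, and in 4 PG cells overall.

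Lists common to all T cells had members in both directions, in shares near those of all genes (21.6% and 25.5%) for signalling and residency. Of 13 CD3 complex and proximal signalling genes compared, 2 were past 2-fold in PG and 3 in skin, with a summed ratio of -0.18 (interval -0.48 to 0.12). Lat was at 1.07 (0.01 to 2.14) and the small GTPase Rac2 at 1.55 (0.75 to 2.37), while Cd247, the receptor zeta chain, was at -1.95 (-3.66 to -0.59). Of 12 residency genes, 2 were past 2-fold in PG and 3 in skin. Cxcr6 (0.39, -0.49 to 1.24) and Rgs1 (-0.19, -0.60 to 0.21) did not differ beyond counting error, while Runx3, a factor of tissue-resident and cytotoxic T cells, was at -2.24. Of 14 T cell genes compared in the list that checked the label, 1 was past 2-fold in PG and 5 in skin, with a summed ratio of -1.34 (-1.61 to -1.09), and the co-receptor list had 1 of 3 in PG, which was Cd4 (log2 2.12, -0.01 to 4.71).

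Because so many skin cells carried the delta receptor, PG T cells were also set against the 27 skin cells without a Trdc or Trdv UMI, with the 2 such PG cells left out as well. This comparison was chosen after seeing the data. Several skin differences shrank or turned, with Xcl1 at log2 -1.18 (interval -3.40 to 0.79), Ctla2a at -1.15, Ctla2b at 0.04, Nkg7 at 0.16 and Prf1, with no skin UMI left, at 0.85 against the floor. Fcer1g was at 0.80 (-1.05 to 2.95), from 9 PG UMIs, of which 7 lay in 1 cell with macrophage or fibroblast markers, and 4 skin UMIs that all lay in the 1 such cell of skin. Klrd1 remained lower in PG at -3.37. Il17a was still at least 4.02 above the floor, whereas Icos was at -0.13 and Ccl5 at -0.73. Ly6a was at 3.78 (2.36 to 5.69), from 71 PG UMIs and 4 skin UMIs. The other PG cells with macrophage or fibroblast markers were kept here, and 1 of them held 33 of the Ly6a UMIs. Dcn had 220 PG UMIs and 0 skin UMIs in the same comparison.

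Barcodes with at least 200 genes and 500 UMIs but under the lower limits above that met the gene rule gave a second, shallower set that shares no barcode with the first, 90 in skin (median 821 UMIs) and 98 in PG (median 633.5). A Trdc or Trdv UMI was found in 50 of the 90 skin barcodes, 55.6%, and in 12 of the 98 PG barcodes, 12.2%. Xcl1 had 106 UMIs in 35 skin and 9 in 2 PG barcodes, Fcer1g 119 UMIs in 47 skin barcodes and none in PG, and Ctla2a was at log2 -4.21. Il17a had 172 UMIs in 27 of the 98 PG barcodes, 27.6% (19.0 to 37.5), and none in skin. The 7 genes of the fibroblast list had 10 UMIs in skin and 1 in PG (139 and 15.4 CPM), while Ly6a had 10 and 40 UMIs (log2 2.15). The delta genes were less far apart than in the deeper cells, with Trdc at log2 -3.22 (-4.13 to -2.43; 145 and 14 UMIs) and Trdv4 at -1.69 (-2.51 to -0.94; 68 and 19 UMIs).

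Gamma-delta receptor UMIs were also found in this shallower PG set, with a gamma chain UMI in 30 of 98 barcodes. Tcrg-C1 had 28 UMIs in 17 PG barcodes and 24 in 19 skin barcodes (431 and 333 CPM). Its direction thus turned from the deeper cells, where it was at 112 CPM in PG and 260 CPM in skin. Tcrg-V6 was found in 5 PG barcodes and 1 skin barcode, and Tcrg-V5 in 4 and 8. Of the 27 Il17a barcodes, 13 held a gamma chain UMI, 6 a Trdc or Trdv UMI, 6 a Trb UMI, 4 a Trac or Trav UMI and 8 no receptor UMI. Over all 98, these 4 kinds of UMI were found in 30, 12, 28 and 26. Of the same 27, Rora was found in 4 (14 of all 98), Icos in 6 (17), Blk in 5 (14), Cxcr6 in 9 (27), Maf in 11 (23) and Tmem176b in 15 (37), so the first 4 were about as frequent in them as in the whole set. Icos had 29 UMIs in 17 PG barcodes and 1 UMI in skin (log2 5.01, interval 2.41 to 10.36), and Blk 16 UMIs in 14 PG barcodes and none in skin. Areg turned, with 8 UMIs in PG and 14 in skin (-0.66, -2.12 to 0.69). Both libraries come from the same pooled mice as above, so this set adds cells and not animals.

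**Figure D5:**
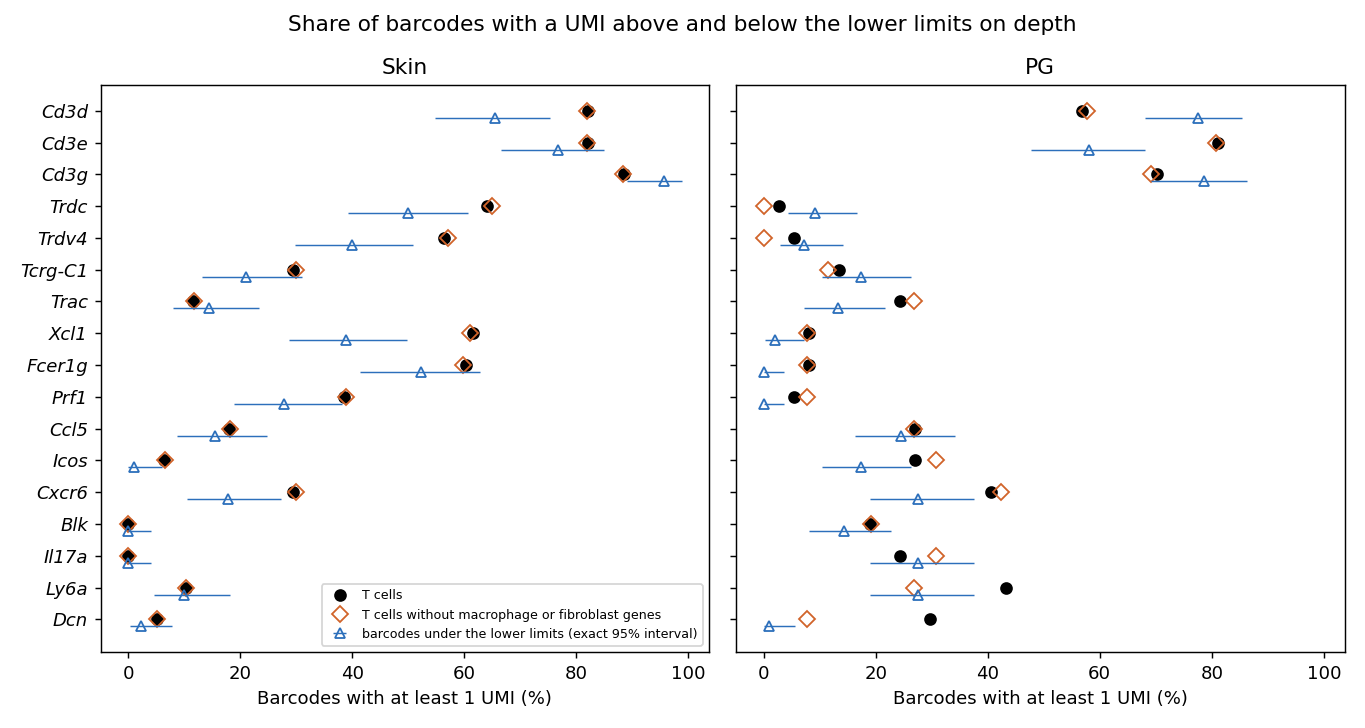
Share of barcodes (percent) with at least 1 UMI of selected genes in the T cells (circles), in those without macrophage or fibroblast markers (diamonds) and in the shallower set (triangles, exact 95% intervals), for skin and PG. Il17a was found in 24.3% of the PG T cells and 27.6% of the shallower PG set and in no skin barcode of either.

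Markers of other cell types moved with tissue and are given for the whole lists. Sebocyte genes, 6 of 9 detected in skin and 8 of 9 in PG, summed to 2691 and 8112 CPM, with Fabp5 the most abundant in skin and Dbi in PG, and of 6 compared 5 were past 2-fold in PG (21.6% of all genes) and 1, Fabp5, in skin. A pair of PG cells held 202 and 89 of the 391 Dbi UMIs, of 651 UMIs for the list. Keratinocyte genes, 12 of 12 and 10 of 12 detected, summed to 8094 and 4174 CPM, led by Lgals7 in both. Macrophage genes, 5 and 7 of 12 detected, summed to 828 and 2966 CPM, nearly all of it Apoe, while the defining genes Csf1r and Adgre1 were at 0 in both tissues. Contractile genes, 5 and 1 of 9 detected, summed to 835 and 24.9 CPM, led by Mylpf in skin, and endothelial genes, 1 and 3 of 6, to 6.68 and 212 CPM. Neutrophil genes were at 0 in both. Ratios with free RNA subtracted, and without cells that hold macrophage or fibroblast markers, are given above, while the part of sebocyte, keratinocyte, contractile and endothelial RNA taken singly was not tested.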

How the data were processed

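The deposited matrices held raw UMI counts per gene and barcode, which the authors made with Cell Ranger on mm10 according to the submitters' processing notes; the annotation release is not given in the sources used here. Skin biopsies and glands of the 3 mice had been pooled by tissue before capture. The labels and methods name a single kit for both libraries, but the 2 files list different sets of possible barcodes, 6794880 for skin and 737280 for PG. Whether the kits differed was not tested, and library cannot be told apart from tissue. No doublet caller was run. Members and gene lists were chosen with earlier results of these data known. Counts were summed over members and divided by their total (CPM). Genes were compared at 50 CPM or more, and called at 2-fold. Ratios carry exact 95% binomial intervals, shares Clopper-Pearson intervals, and a group with no UMI was set at 3 counts. Thinning drew 1000 UMIs per barcode without replacement. Comparison sets were fibroblasts (4 or more fibroblast genes), myeloid barcodes and free RNA (barcodes of up to 50 UMIs). Named genes were the 10 at each end with at least 100 CPM in 10% of members, 3 times their level in other kept barcodes and above free RNA, the 5 at each end without the last conditions, and 8 at each end for gamma-delta against alpha-beta cells (at least 200 CPM in 15% of cells). For the split by Trdc or Trdv UMI and the lists, examples were picked after seeing values. On simulated data for PG over skin, 96.99% of the intervals of 2691 genes held the true ratio. The binomial intervals treat each UMI as a separate draw. They do not cover UMIs gathered in few cells, such as 1250 of the 1264 Cst6 UMIs of PG in 1 cell. Alternatives changed the limits, the gate, the thinning, the scaling and the filters. Python 3.11.15, numpy 2.4.6, scipy 1.17.1, pandas 2.3.3 and matplotlib 3.10.9 were used.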

Additional observations from a re-analysis of the deposited data

Results flagged for a closer look

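T cell signal was found in barcodes that the limits on depth and mitochondrial share keep out of the comparisons. Under the lower limits on genes or UMIs, 90 skin barcodes and 98 PG barcodes met the same gene rule, among 2156 and 1311 barcodes of that kind. Above 10% of mitochondrial UMIs, 2 of 232 skin barcodes and 10 of 662 PG barcodes met it. Fewer PG than skin T cells passed the limits, but the shares were close (37 of 4699 kept barcodes, 0.787%, against 78 of 8899, 0.877%). The shallower sets were close in number, with the larger share in PG (98 of 1311 against 90 of 2156). No explanation for this was tested.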

How the results depend on the processing

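No paired analysis was possible because each tissue gave 1 pooled library. Of the results that answer a comparison, 148 values under other settings stayed within their counting interval or 1.5 times the count, and 23 did not. With at least 200 genes and 500 UMIs the T cell share was 1.52% in skin and 2.25% in PG (log2 ratio 0.56); with 1000 genes and 2000 UMIs it was 0.415% and 0.421%, from 19 and 12 cells. The skin share was 0.685% with Krt5 and Krt14 under 5 per 10000, and the PG share 0.553% without cells that hold macrophage or fibroblast markers and 0.468% when they were selected again after thinning, as in each thinned value below. By the receptor with more UMIs, the skin alpha-beta share was 30.8%, against 83.3% with any alpha-beta UMI. The skin Cd4 share was 0 with 1000 genes and 2000 UMIs, with at least 2 of the 3 Cd3 genes, and when T cells were selected again after thinning (thinning the T cells as selected left 2 of 78). With 1000 genes and 2000 UMIs, 41.7% of PG cells held gamma-delta and 50% alpha-beta UMIs, against 24.3% and 67.6% at the limits used here. Genes higher in PG numbered 200 at 200 CPM (810 at 50 CPM), and genes higher in skin 471 after thinning, 1535 at 20 CPM and 190 at 200 CPM (956 at 50 CPM). Genes higher in gamma-delta than alpha-beta skin cells numbered 173 with 1000 genes and 2000 UMIs, 197 with no keratin limit, 222 with the stricter one, 142 after thinning and 139 by the receptor with more UMIs (340 as reported).

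Among single genes, 12 values changed sign under these settings, among them limits for Ifng and Krt15 that show no reversal. With 1000 genes and 2000 UMIs, the log2 ratio of PG over skin was 0.20 for Nkg7, 0.27 for Prf1, -0.091 for Icos, -0.44 for Areg and 0.30 for Ltb. C3 was at -1.08 without cells that hold macrophage or fibroblast markers and Cst6 at -0.95 with the stricter keratin limit. Krt15, itself a reference gene for the free RNA estimate, had an upper limit of 0.46 with free RNA subtracted. Ifng stood at 0.085 after thinning, which is an upper limit and no turn in direction. No PG T cell held an Ifng UMI, so PG was set at the floor of 3 counts. Of gamma-delta over alpha-beta, Krt10 was at 0.14 with no keratin limit, and Hspb1 at 0.76 with the stricter one and 0.10 by the receptor with more UMIs. Under settings chosen after seeing the data, 6 reversed, Areg at -0.66 in the shallower set and Ctla2b at 0.041, Nkg7 at 0.16, Prf1 at 0.85, Fcer1g at 0.80 and Icos at -0.13 among cells without a Trdc or Trdv UMI. The cause of these changes was not tested. The share of genes past 2-fold that were higher in PG was 60.5% after thinning. Depth limits any gene under the floors of 20.04 CPM in skin and 37.4 CPM in PG.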

Other observations

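Counts below are to be read against all genes compared, of which 21.6% were at least 2-fold higher in PG and 25.5% in skin. Of 8 cell cycle genes compared, 2 were at least 2-fold higher in PG T cells and 1 in skin, with summed levels of 1234 and 1162 CPM. Mki67, a marker of dividing cells, had UMIs in 8 of 78 skin and 7 of 37 PG cells, and Top2a in 10 and 9. Any cell cycle UMI was found in 26.9% of skin and 48.6% of PG cells, which also differed in depth (medians of 1341 and 1709 UMIs). Of 17 immediate early and heat shock genes, 3 were past 2-fold in PG and 1 in skin, with a summed log2 ratio of PG over skin of 0.12 (-0.01 to 0.26). Hspa1a, a heat shock chaperone, was the exception by size of counts, with 59 UMIs in skin and 80 in PG (log2 1.34, 0.84 to 1.85).

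Of 5 recirculation and naive T cell genes compared, 2 were past 2-fold in skin and none in PG. Of 5 inhibitory receptors, 2 were past 2-fold in PG and 3 in skin, among them Lag3 with 16 UMIs in 13 skin cells and 1 in PG (log2 -3.10, -8.49 to -0.41). Cytokine receptor genes had 1 of 8 in PG and 3 of 8 in skin, and chemokines with their receptors 0 and 1 of 5, the last being Xcl1. Natural killer and innate lymphoid genes had 2 of 5 in each direction, with Klrb1b at 33 UMIs in 27 skin cells and none in PG, and Ncr1, which marks natural killer cells, at 0 in both. Dendritic and Langerhans cell genes had none past 2-fold in either direction, with Cd74 the most abundant at 301 CPM in skin and 498 CPM in PG. B cell and plasma cell genes summed to 140 and 62.3 CPM, mast cell genes to 0 and 62.3 CPM, and melanocyte genes to 20.04 and 12.5 CPM.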
